A study of Mus musculus with 8 samples.

Results

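The 34 genes described here encode transcription factors that carry a homeodomain or an HMG box: 8 LIM-homeodomain genes (Lhx1 to Lhx6, Lhx8 and Lhx9), 9 NK-homeodomain genes of the Nkx2, Nkx3 and Nkx6 classes, 6 Iroquois genes (Irx1 to Irx6) and 11 Sox genes. They were chosen by family, not by a measured value, and each was taken as its RefSeq span with 2000 bp beyond both ends, called its locus below. All 34 were found among 21631 protein-coding genes on chromosomes 1 to 19 and X, and their loci held 25969 of the 33108039 cytosine positions in the deposited table. DNA methylation came from bisulfite sequencing of the whole genome, a method in which unmethylated cytosines are read as thymine, in muscle stem cells of 4 old mice (22 months) and 4 young mice (4 months). All 8 animals were C57BL/6 males with no other allele or agent named, and each library came from 1 animal. The cells were sorted from limb muscle as CD45- CD31- Sca1- VCAM+, a gate that leaves out blood, endothelial and fibro-adipogenic cells, and were used without culture. The table gives 1 level for the old group and 1 for the young group at each position, with no value per animal. A level is the average over DNA molecules of many cells, so a large change in few cells and a small change in many cannot be told apart. No SD, replicate error or read depth can therefore be given for any level below, and the p-values of the authors are the only measure of error.

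These genes set cell identity during embryonic development. LIM-homeodomain, Nkx2, Nkx6 and Iroquois factors divide the neural tube and the early gut, heart and limb into territories, and each Sox subgroup serves particular lineages: B1 and B2 the nervous system, C neurons and mesenchyme, E cartilage and neural crest, F endothelium. Outside their own lineages such genes are commonly held silent by Polycomb complexes over broad, CpG-rich stretches of DNA that carry little methylation. Sox8 is known to be expressed in satellite cells, and roles of the other members in muscle stem cells were not reviewed here.

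Across all 32984740 positions on chromosomes 1 to 19 and X, the mean level was 64.6% in old cells and 64.1% in young cells, a difference of 0.473 percentage points, and 373 mitochondrial positions stood at 1.08% in old cells and 1.18% in young cells. The sorted cells had low levels at gene ends of muscle stem cell markers: the less methylated end of Pax7, the regulator that defines satellite cells, stood at 4.55% in old and 4.33% in young cells, and that of Myod1, a myogenic regulator, at 8.75% in old and 8.84% in young cells. Of 8 such markers 7 had an end below 20%. None of the 6 endothelial, 6 blood, 4 Schwann or glial and 4 muscle fibre markers did, and 1 of 4 fibro-adipogenic markers did. Pecam1, the CD31 gene, stood at 70.7% in old and 70.0% in young cells, and Ptprc, the CD45 gene, at 65.7% in old and 65.9% in young cells. The median end of the endothelial list was at 65.7% in old and 66.2% in young cells and that of the blood list 63.4% in old and 64.0% in young cells. A change in the share of another cell type was not tested.

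The start regions of several members show the kind of sequence involved. The 300 bases from 250 before to 50 after the start are from RefSeq (GRCm38.p6), given 5′ to 3′ on the gene's own strand, with CpG dinucleotides in capitals. Lhx1, Lhx3, Nkx6-2, Nkx2-5 and Irx2 are shown because their families' largest differences in either direction lay at these genes' ends, and Irx1, Sox7 and Sox17, which had the same place, are named only. The end values of Lhx3, Nkx2-5 and Irx2 come from windows that do not hold the printed start, so they describe another place. At these genes the printed window was higher in old and the end value lower. Nkx2-3, Lhx4 and Sox11 were added after their values were seen: the largest promoter difference, an unmethylated start far inside the gene, and the least methylated end.
Lhx1 (chr11:84525485-84525784, minus strand): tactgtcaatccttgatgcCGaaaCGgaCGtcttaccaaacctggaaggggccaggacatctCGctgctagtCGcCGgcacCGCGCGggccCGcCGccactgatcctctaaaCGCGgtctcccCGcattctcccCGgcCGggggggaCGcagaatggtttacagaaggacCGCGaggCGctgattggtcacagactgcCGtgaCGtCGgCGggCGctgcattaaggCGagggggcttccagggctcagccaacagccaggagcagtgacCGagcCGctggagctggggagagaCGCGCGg
Lhx3 (chr2:26208200-26208499, minus strand): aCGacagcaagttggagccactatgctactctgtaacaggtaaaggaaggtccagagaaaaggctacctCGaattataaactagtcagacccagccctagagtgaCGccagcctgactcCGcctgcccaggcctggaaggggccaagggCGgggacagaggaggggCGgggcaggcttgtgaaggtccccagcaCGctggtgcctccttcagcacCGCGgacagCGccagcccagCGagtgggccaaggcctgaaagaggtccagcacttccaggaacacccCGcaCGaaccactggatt
Lhx4 (chr1:155741978-155742277, minus strand): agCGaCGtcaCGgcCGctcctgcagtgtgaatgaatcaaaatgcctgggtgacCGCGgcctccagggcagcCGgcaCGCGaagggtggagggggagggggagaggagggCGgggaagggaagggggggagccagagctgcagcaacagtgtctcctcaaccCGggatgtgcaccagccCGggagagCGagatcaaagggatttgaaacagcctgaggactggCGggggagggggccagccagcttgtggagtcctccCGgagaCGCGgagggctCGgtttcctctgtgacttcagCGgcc
Nkx6-2 (chr7:139582748-139583047, minus strand): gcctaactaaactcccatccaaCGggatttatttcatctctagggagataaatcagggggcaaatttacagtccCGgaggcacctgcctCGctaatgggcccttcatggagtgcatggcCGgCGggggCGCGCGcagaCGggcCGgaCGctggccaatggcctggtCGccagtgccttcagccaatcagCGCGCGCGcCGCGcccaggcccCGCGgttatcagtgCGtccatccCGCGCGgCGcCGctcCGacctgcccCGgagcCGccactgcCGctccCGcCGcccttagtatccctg
Nkx2-5 (chr17:26841516-26841815, minus strand): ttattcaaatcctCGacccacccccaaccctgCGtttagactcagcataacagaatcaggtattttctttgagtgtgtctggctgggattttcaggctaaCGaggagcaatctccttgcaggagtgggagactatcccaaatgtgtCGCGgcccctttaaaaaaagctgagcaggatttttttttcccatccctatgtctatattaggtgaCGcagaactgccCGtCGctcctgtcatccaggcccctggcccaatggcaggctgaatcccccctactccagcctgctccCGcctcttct
Nkx2-3 (chr19:43612075-43612374, plus strand): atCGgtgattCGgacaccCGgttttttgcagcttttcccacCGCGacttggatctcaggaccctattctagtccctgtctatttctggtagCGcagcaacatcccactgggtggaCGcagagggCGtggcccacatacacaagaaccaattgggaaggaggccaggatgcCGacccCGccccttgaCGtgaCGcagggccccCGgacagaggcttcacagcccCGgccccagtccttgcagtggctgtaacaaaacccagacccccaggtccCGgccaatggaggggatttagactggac
Irx2 (chr13:72628570-72628869, plus strand): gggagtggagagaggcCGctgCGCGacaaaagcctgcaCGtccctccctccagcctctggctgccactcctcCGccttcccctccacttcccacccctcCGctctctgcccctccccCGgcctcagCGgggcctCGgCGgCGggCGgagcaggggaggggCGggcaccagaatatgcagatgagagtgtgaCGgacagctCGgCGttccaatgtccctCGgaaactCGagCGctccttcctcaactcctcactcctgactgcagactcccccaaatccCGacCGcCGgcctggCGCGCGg
Sox11 (chr12:27342669-27342968, minus strand): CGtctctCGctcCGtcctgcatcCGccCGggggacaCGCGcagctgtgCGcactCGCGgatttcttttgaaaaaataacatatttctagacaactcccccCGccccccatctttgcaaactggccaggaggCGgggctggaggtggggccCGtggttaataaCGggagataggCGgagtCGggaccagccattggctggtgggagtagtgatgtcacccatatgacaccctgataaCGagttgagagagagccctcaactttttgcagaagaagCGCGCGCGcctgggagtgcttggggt

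Such windows were held by RefSeq for 24 members (28 windows), and the other members, Lhx5, Nkx2-6, Irx1, Irx5, Irx6, Sox7, Sox9, Sox10, Sox17 and Sox18, are named only. Within them the members had a median of 21 CpGs per 300 bases and 65.7% G+C, against 13 CpGs and 56.7% over 21045 windows of all protein-coding genes. The ratio of observed to expected CpGs had a median of 0.747 in members and 0.574 in all genes. Nkx6-1, a regulator of beta cells and motor neurons, held the most CpGs of the members, 40, and the window with the fewest held 4.

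All 27 windows with at least 4 positions were below 20% methylation in the mean of both ages, against 75.1% of such windows over all genes. Their median level was 3.39% in old cells and 3.23% in young cells. The level was higher in old in 20 of the 27 and lower in 7, where 41.4% of the 17583 windows of all genes were higher. The median difference was 0.157 points in members and -0.0676 points in all genes. Each value is small: the members' median lies below the genome-wide difference of 0.473 points, no window carries an error, and the look at this window was added after seeing the data. The largest difference was at Nkx2-3, which is needed for spleen and gut mesenchyme, with 13.4% in old and 9.93% in young cells. Nkx2-5, the heart regulator, came next with 10.4% in old and 7.70% in young cells, and the authors' deposited table gave 0.0193 as the smallest unadjusted p in that window. The printed windows of Lhx1, Nkx6-2 and Irx2 stood at 2.76% in old and 2.53% in young cells, at 2.90% in old and 2.45% in young cells and at 2.92% in old and 2.85% in young cells. Those of Lhx3 and Sox11 stood at 6.31% in old and 5.13% in young cells and at 2.31% in old and 2.56% in young cells, so all 8 printed sequences had low levels at both ages.

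To compare all 34 members, both gene ends were taken with 2000 bp to either side, and values are given for whichever end was lower in the mean of old and young (the less methylated end), since strand and exons were not given for every member. The p of a window of at least 10 positions was the doubled median of the authors' p-values in it, with Benjamini-Hochberg adjustment over all genes. None of the 68 end windows and none of the 34 loci passed 0.05, and none had an unadjusted p under 0.05. Among all protein-coding genes 0% of 41348 end windows and 0% of 21210 loci passed, with 0.0193% and 0.00943% under 0.05 unadjusted. The smallest p of a member's end window was 0.847, at the higher-coordinate end of Irx6, and the smallest p of a locus was 1. With another bound, the number of positions times the smallest p, the Lhx4 locus alone passed (adjusted p 0.000239), where 34.8% of all loci did; no end window of a member passed, where 5.53% of all did. The differences below are therefore descriptions of pooled levels.

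The less methylated ends of the members were nearly free of methylation at both ages. Their median level was 7.67% in old cells and 7.57% in young cells, against 22.83% in old cells and 22.84% in young cells for all protein-coding genes, and 31 of the 34 were below 20%. The level was higher in old at 21 ends and lower at 13, where 51.4% of all genes were higher in old. The median difference was 0.134 points in members and 0.0242 points in all genes, and the members ranged from -0.690 points at Lhx3 to 2.20 points at Sox7. Of the 31 ends below 20%, 19 were higher in old with a median difference of 0.124 points, while among 9410 such ends of all genes 45.2% were higher, with a median of -0.0553 points. After the genome-wide difference of 0.473 points was subtracted, 8 of the 34 ends were above zero, against 30.2% of all genes. The subtracted value is a mean over positions of all levels, so it is not matched to ends of low level. In 500-bp bins of the loci of all genes the median difference was -0.092 points below 10% and 0.659 points from 60% to 80%. With windows of 500 bp 18 of the 34 ends were higher in old, with a median difference of 0.00729 points, where 43.1% of all genes were higher.

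**Figure D1:**
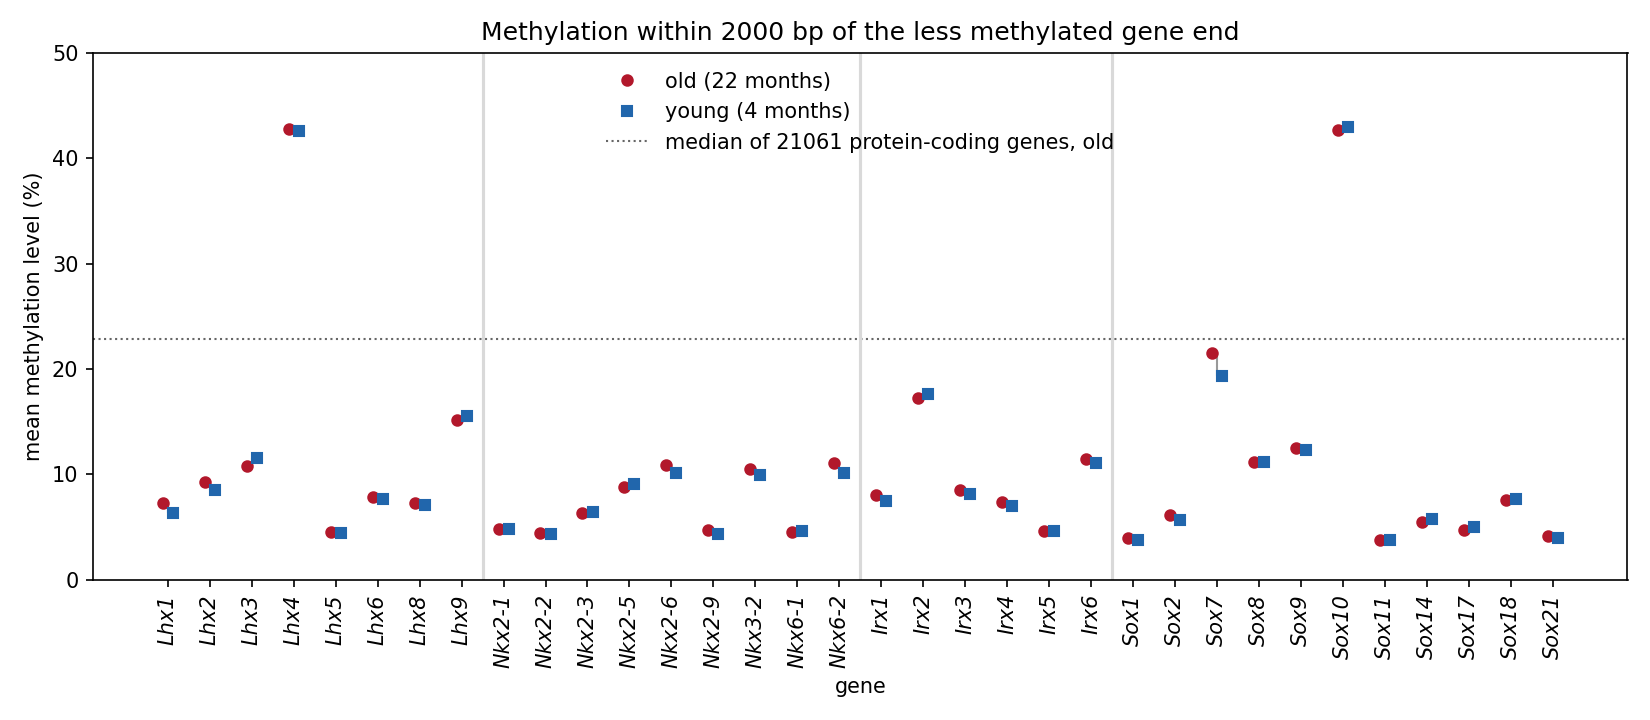
Methylation level in percent (vertical axis) within 2000 bp of the less methylated end of each of the 34 members (horizontal axis), with a circle for the old group and a square for the young group; the dotted line is the median of all genes in old cells. The marks of a gene nearly coincide, 31 of 34 genes lie below 20%, and Lhx4 and Sox10 stand near 43%.

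In the Lhx family 6 of 8 less methylated ends were higher in old, and the family medians were 8.52% in old cells and 8.04% in young cells. Lhx1 (chr11:84517975-84525534), needed for head and kidney formation, had the largest end difference of the family, with 7.31% in old and 6.35% in young cells over 417 positions, 0.969 points. That value was 0.494 points with 1000-bp and 0.202 points with 500-bp windows, so most of it lay away from the end itself. Its close relative Lhx5 (chr5:120431886-120441457), a forebrain regulator, stood at 4.51% in old and 4.40% in young cells. Lhx2 (chr2:38339271-38369737), which acts in the eye, forebrain and hair follicle, stood at 9.24% in old and 8.46% in young cells, 0.784 points, and at 0.177 points with 1000-bp windows. A second RefSeq start of Lhx2 lies 12037 bp inside the gene, where the level was 2.33% in old and 2.14% in young cells, against 3.13% in old and 3.21% in young cells at the first. Lhx9, its paralog in the gonad and limb, had the opposite sign, with 15.1% in old and 15.6% in young cells. Lhx3 (chr2:26200212-26208249), a regulator of pituitary and motor neurons, had the lowest difference of all members, -0.690 points, with 10.8% in old and 11.5% in young cells over 157 positions. That end is the one away from its printed start, and the end at the start stood at 11.8% in old and 10.9% in young cells. The less methylated end was chosen anew under each setting, so values under other settings may belong to the end at the start. They were 0.474 points with 1000-bp windows, 0.818 points with 500-bp windows and 0.823 points when positions with the most common dispersion value were left out. The Lhx3 locus also overlaps Qsox2. Lhx6 and Lhx8, which act together in forebrain neurons and teeth, differed by 0.172 and 0.187 points, with 7.81% in old and 7.63% in young cells at Lhx6 and 7.28% in old and 7.09% in young cells at Lhx8.

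Lhx4 (chr1:155698031-155751726), the pituitary paralog of Lhx3, was the Lhx gene with methylated ends: its less methylated end stood at 42.8% in old and 42.6% in young cells and its other end at 51.6% in old and 49.2% in young cells. The RefSeq start whose sequence is printed above lies 9699 bp inside the span, and there the level was 4.31% in old and 4.29% in young cells. The Lhx4 start region was thus nearly unmethylated at both ages, although both of its annotated ends were not. Starts also lay well inside the span for Nkx2-2, Lhx9, Irx2 and Nkx2-5, by 9032, 6395, 4390 and 3423 bp.

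In the Nkx family 5 of 9 less methylated ends were higher in old, with family medians of 6.30% in old cells and 6.40% in young cells. Nkx2-1 (chr12:56531935-56536908), the thyroid and lung regulator, was low at both ends and over its whole locus: 4.76% in old and 4.84% in young cells at the less methylated end and 4.597% in old and 4.49% in young cells over 671 positions of the locus. Nkx2-2, which patterns the ventral neural tube and pancreatic islets, stood at 4.41% in old and 4.28% in young cells. Its neighbour in function, Nkx2-9, stood at 4.66% in old and 4.29% in young cells. Among the genes of heart, spleen and pharynx, Nkx2-5 stood at 8.77% in old and 9.04% in young cells and Nkx2-3 at 6.30% in old and 6.40% in young cells. For Nkx2-3 that end is the one away from its start, and the end at its start stood at 22.3% in old and 21.9% in young cells. The value of Nkx2-5 is also from the end downstream of its start, and its other end stood at 15.2% in old and 14.9% in young cells. Nkx2-6 stood at 10.9% in old and 10.1% in young cells, 0.809 points, while its other end ran the other way, with 10.2% in old and 12.3% in young cells. The less methylated end was chosen anew under each setting, so values of Nkx2-6 under other settings may belong to its other end. They were -0.317 points with 500-bp windows, -2.84 points with equal weight per 100-bp bin and 1.54 points with 1000-bp windows. Nkx3-2, a regulator of axial cartilage, was higher in old at both ends, by 0.623 points at the less methylated one (10.5% in old and 9.88% in young cells). Nkx6-2 (chr7:139579376-139582797), known in oligodendrocytes, had the largest end difference of the family, 0.923 points, with 11.1% in old and 10.1% in young cells over 596 positions. With 1000-bp windows that difference was 0.362 points, and the locus overlaps Inpp5a. Nkx6-1 had the opposite sign, with 4.50% in old and 4.63% in young cells.

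The Irx genes lie in 2 clusters, IrxA on chromosome 13 (Irx1, Irx2, Irx4) and IrxB on chromosome 8 (Irx3, Irx5, Irx6). In the family 4 of 6 less methylated ends were higher in old, 2 of 3 in each cluster, and the family medians were 8.28% in old cells and 7.81% in young cells. Within IrxA, Irx1 (chr13:71958232-71963723), active in lung and limb patterning, stood at 8.06% in old and 7.502% in young cells, 0.562 points, the largest difference of the family with these windows. It was -0.0672 points with 1000-bp and 0.0158 points with 500-bp windows. Irx4, a regulator of the heart ventricle, stood at 7.32% in old and 6.94% in young cells, 0.375 points, and at 0.958 points with 1000-bp and 1.82 points with 500-bp windows. For Irx4 the value of 0.375 points is from the end away from its start. The end at its start stood at 12.7% in old and 12.1% in young cells. Its RefSeq start window was lower in old, with 3.20% in old and 3.31% in young cells. Irx2 (chr13:72624430-72634196) was higher in methylation than its neighbours and had the lowest difference, -0.385 points, with 17.2% in old and 17.6% in young cells. The value was 0.309 points with 1000-bp windows. Within IrxB, Irx3 and Irx5, which act together in heart and limb, stood at 8.49% in old and 8.11% in young cells and at 4.63% in old and 4.64% in young cells. Irx6 stood at 11.4% in old and 11.1% in young cells at its less methylated end, and at 54.6% in old and 57.8% in young cells at its other end.

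In the Sox family 6 of 11 less methylated ends were higher in old, with family medians of 6.15% in old cells and 5.74% in young cells. The neural B genes were among the lowest of all members. Sox1 stood at 3.95% in old and 3.75% in young cells and Sox2, also a regulator of pluripotent cells, at 6.15% in old and 5.65% in young cells. Sox14 stood at 5.43% in old and 5.74% in young cells and Sox21, like Sox14 a repressor of the B2 subgroup, at 4.13% in old and 3.98% in young cells. Sox11 of subgroup C had the lowest end of the 34 members, with 3.72% in old and 3.75% in young cells, whereas its other end stood at 84.7% in old and 85.6% in young cells. The E subgroup spread widely. Sox8, known from satellite cells, stood at 11.2% in old and 11.1% in young cells, and Sox9, the cartilage and testis regulator, at 12.4% in old and 12.3% in young cells. Sox10 (chr15:79154913-79164490), the neural crest and Schwann cell regulator, stood at 42.7% in old and 43.0% in young cells, so neither of its ends was unmethylated. The F genes of endothelium also differed in level. Sox17 stood at 4.67% in old and 5.03% in young cells, Sox18 at 7.53% in old and 7.64% in young cells, and Sox7 at 21.5% in old and 19.3% in young cells. None of the 6 endothelial marker ends was below 20%, as given above.

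Sox7 (chr14:63943706-63950732) had the largest difference of all members at its less methylated end, 2.20 points over 332 positions. It also had the largest over the locus, 2.28 points, with 31.9% in old and 29.6% in young cells. The end value was 0.789 points with 1000-bp windows and -0.232 points with 500-bp windows, so the difference lay between 500 and 2000 bp from that end. A bin within it, chr14:63945000-63945499 (9 positions) at 86.1% in old and 71.8% in young cells, gave a doubled median p of 0.0276, unadjusted. It is 1 of only 2 bins with such a p under 0.05 among 848 bins of 500 bp in all members. The bins of other genes were not tested in this way.

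**Figure D2:**
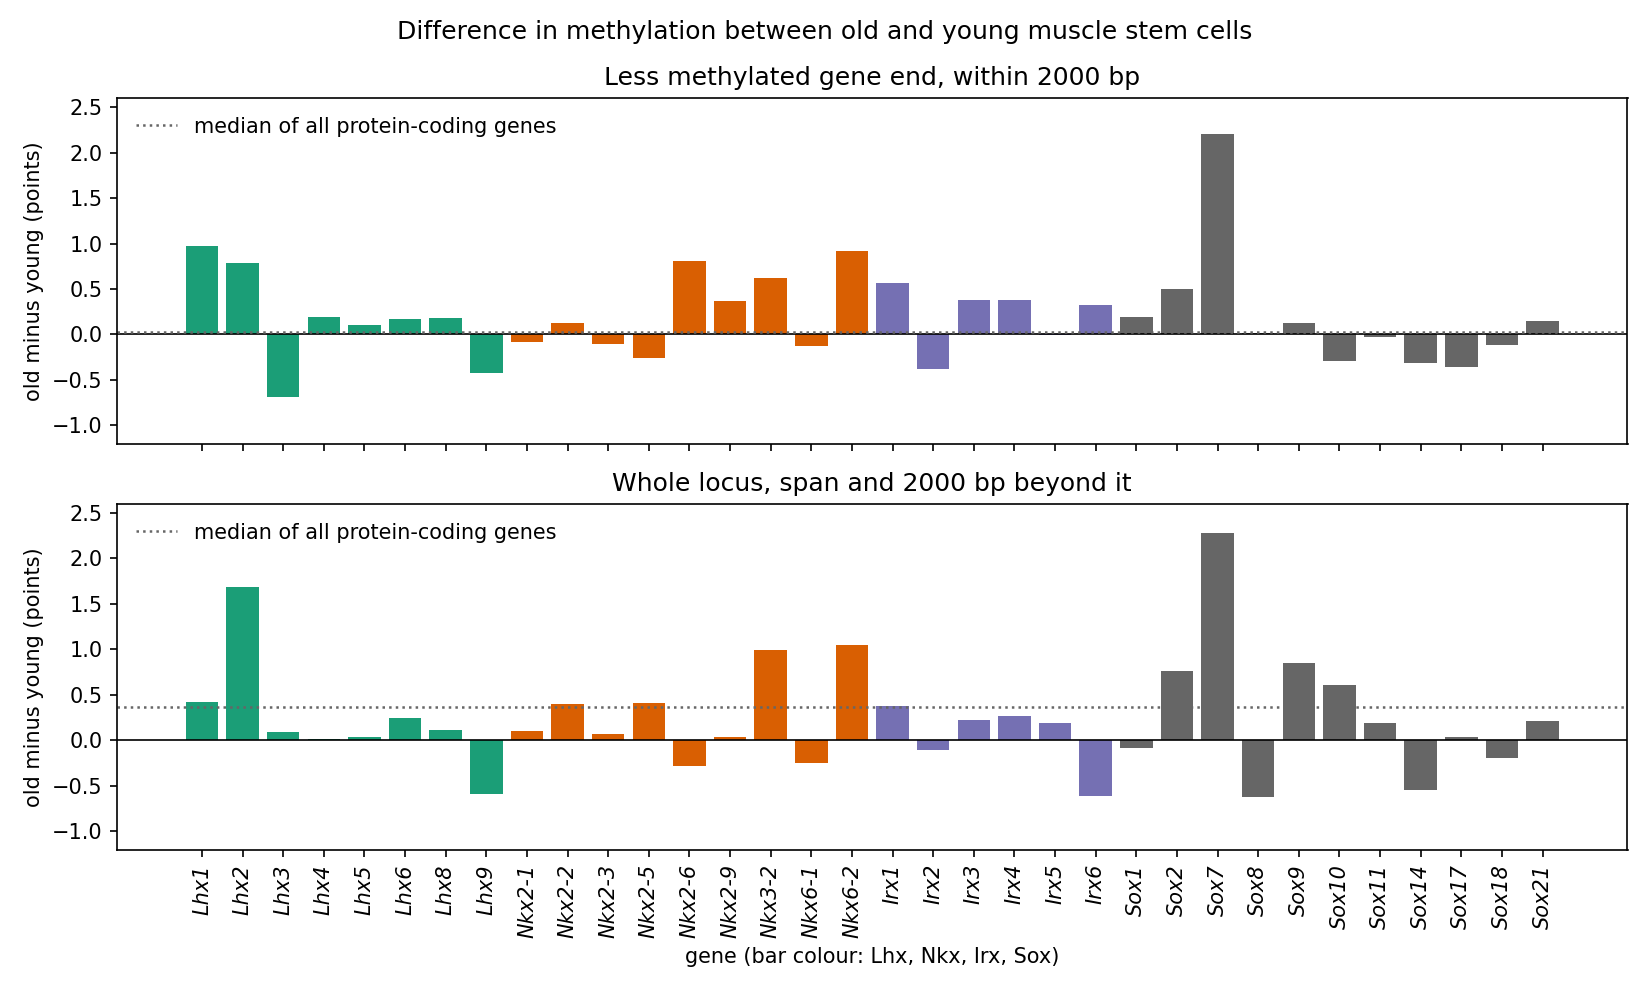
Difference of old minus young cells in percentage points for each member, at the less methylated end (top) and over the locus (bottom), with bars coloured by family and a dotted line at the median of all genes. At the ends 21 of 34 values lie above 0 and the widest is 2.20 points at Sox7; the values carry no error.

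Over whole loci the median level of the members was 12.3% in old cells and 12.1% in young cells, against 60.2% in old cells and 59.8% in young cells for all genes. The locus was higher in old in 25 of 34 members, 7 of 8 Lhx, 7 of 9 Nkx, 4 of 6 Irx and 7 of 11 Sox genes. Among all protein-coding genes 72.2% of loci were higher in old, so the members' share was near the background. Their median difference was smaller, 0.150 points against 0.367 points. With 0.473 points subtracted, 7 of 34 members and 42.9% of all genes were above zero. As at the ends, the subtracted value is not matched to loci of low level. After Sox7, the largest positive values were at Lhx2, 1.68 points with 36.7% in old and 35.0% in young cells over 1536 positions, and at Nkx6-2, 1.05 points with 25.1% in old and 24.1% in young cells. The largest negative values were at Sox8 (-0.619 points, 14.4% in old and 15.0% in young cells), Irx6 (-0.614 points, 28.3% in old and 28.9% in young cells) and Lhx9 (-0.590 points, 21.6% in old and 22.1% in young cells). For Irx6 the sign turned to 0.092 points within the span alone.

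Many members lay in broad unmethylated stretches, described here without a test. The stretch was taken as the longest run of 500-bp bins with a mean of both ages below 20% that touched the locus, searched to 20000 bp beyond it. Its median length was 4750 bp in members and 1500 bp in all genes. In 17 of 34 members it reached 5000 bp, against 1.45% of 21631 genes. Such stretches were not particular to the members: 3 of 8 muscle stem cell markers had one, among them Pax7 with 15000 bp, as did 2 of 8 other Sox genes (Sox3 and Sox4) and 1 of 17 Polycomb genes (Jarid2). Lhx5 had the longest, 17500 bp, followed by Nkx2-1 with 11500 bp and Sox1 with 10000 bp. The longest of the Irx family was 6000 bp at Irx5. The shortest of each family were 2500 bp at Lhx2, 2000 bp at Nkx3-2, 2500 bp at Irx6 and 500 bp at Sox10. Member loci also held more positions per length, a median of 66.6 per kb against 20.9 in all genes, and the part of this in the length of the stretches was not tested.

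**Figure D3:**
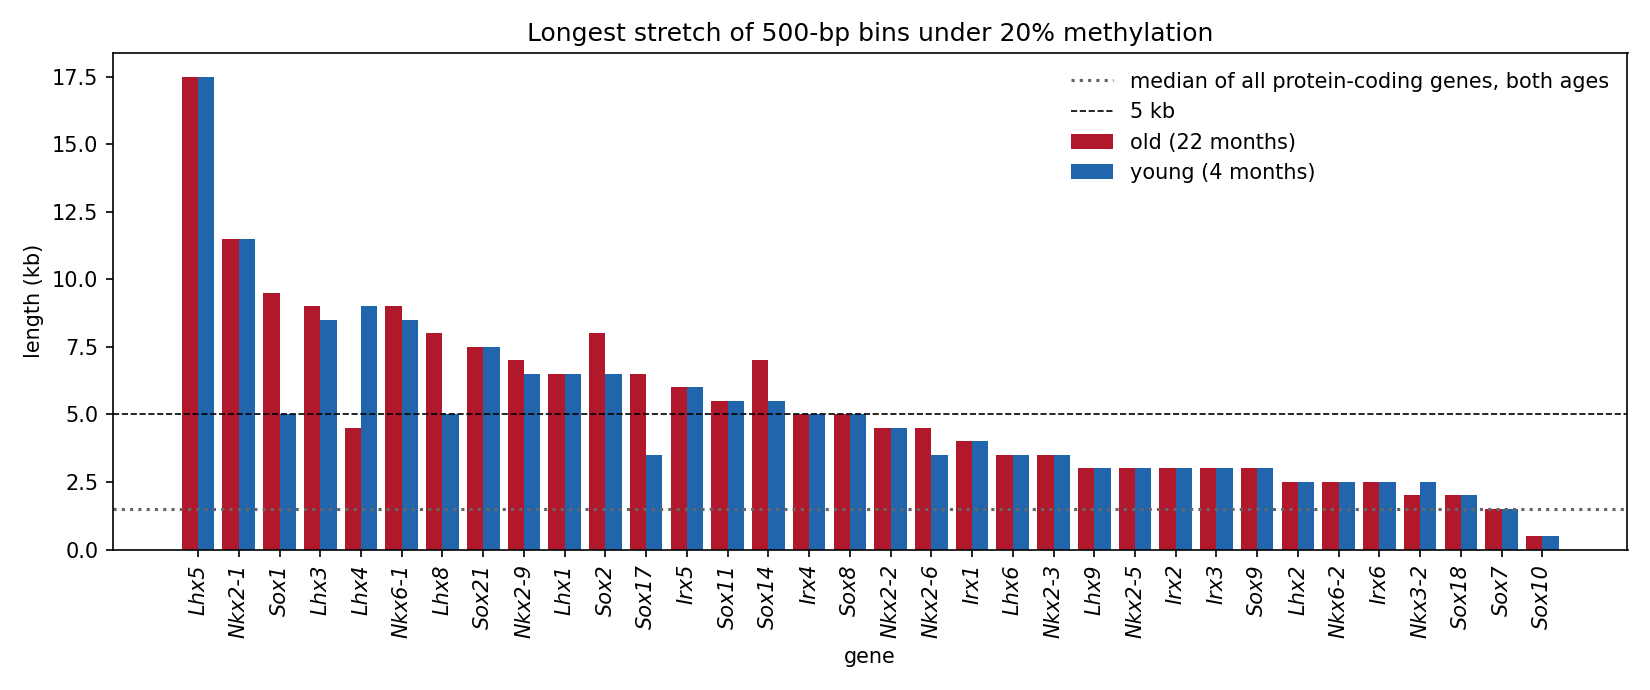
Length in kb of the longest unmethylated stretch of each member, with a bar for old and a bar for young cells, a dotted line at the median of all genes and a dashed line at 5000 bp. In 23 members the bars are equal; 17 members reach 5000 bp in the mean of both ages, and the longest, 17500 bp, belongs to Lhx5.

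Computed in each age alone, the stretch was equal in 23 members, longer in old in 9 and shorter in old in 2, while 7.4% of all genes had a longer and 6.57% a shorter one in old. Long stretches have more bins that can cross 20%, and among the 313 genes with a stretch of at least 5000 bp 23.0% were longer and 18.5% shorter in old. The bins that crossed 20% at only 1 age numbered 22 in 11 members, differed by 1.19 to 17.2 points with a median of 5.78, and 6 of them by at least 10 points. They were sought in the stretch and somewhat beyond its edges, so not all of them set its length. Some held few positions, such as an Lhx4 bin of 1 position at 14.0% in old and 31.0% in young cells. In Sox1 the stretch was 9500 bp in old and 5000 bp in young cells, and 1 of the bins between them had 9 positions at 13.3% in old and 23.6% in young cells. In Lhx4 it was 4500 bp in old and 9000 bp in young cells, where a bin of 8 positions stood at 21.0% in old and 16.8% in young cells. In Sox17 it was 6500 bp in old and 3500 bp in young cells, and the deciding bin held 1 position, at 16.6% in old and 20.2% in young cells.

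Across the edges of these stretches the level climbed over a short distance at both ages. More than 1000 bp inside the edge the members' mean was 6.15% in old cells and 6.06% in young cells, and within 500 bp inside it was 11.26% in old cells and 11.25% in young cells. Within 500 bp outside it was 36.1% in old cells and 36.0% in young cells, with a mean difference of 0.0737 ± 2.90 points (SD over 32 genes, not over animals). In that zone 14 of 32 members were higher in old. From 500 to 1000 bp outside, the mean difference was 0.294 ± 4.55 points (SD over 32 genes), and 20 of 32 were higher in old. In the core it was 0.0925 ± 0.784 points (SD over 30 genes), with 15 of 30 higher in old. Among all genes with a broad stretch the core stood at 5.24% in old and 5.35% in young cells, and 37.2% of 309 were higher in old. In the members with a broad stretch it stood at 6.01% in old and 5.97% in young cells. Of these 17 members 8 (47.1%) were higher in old, with a median difference of -0.0605 points.

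**Figure D4:**
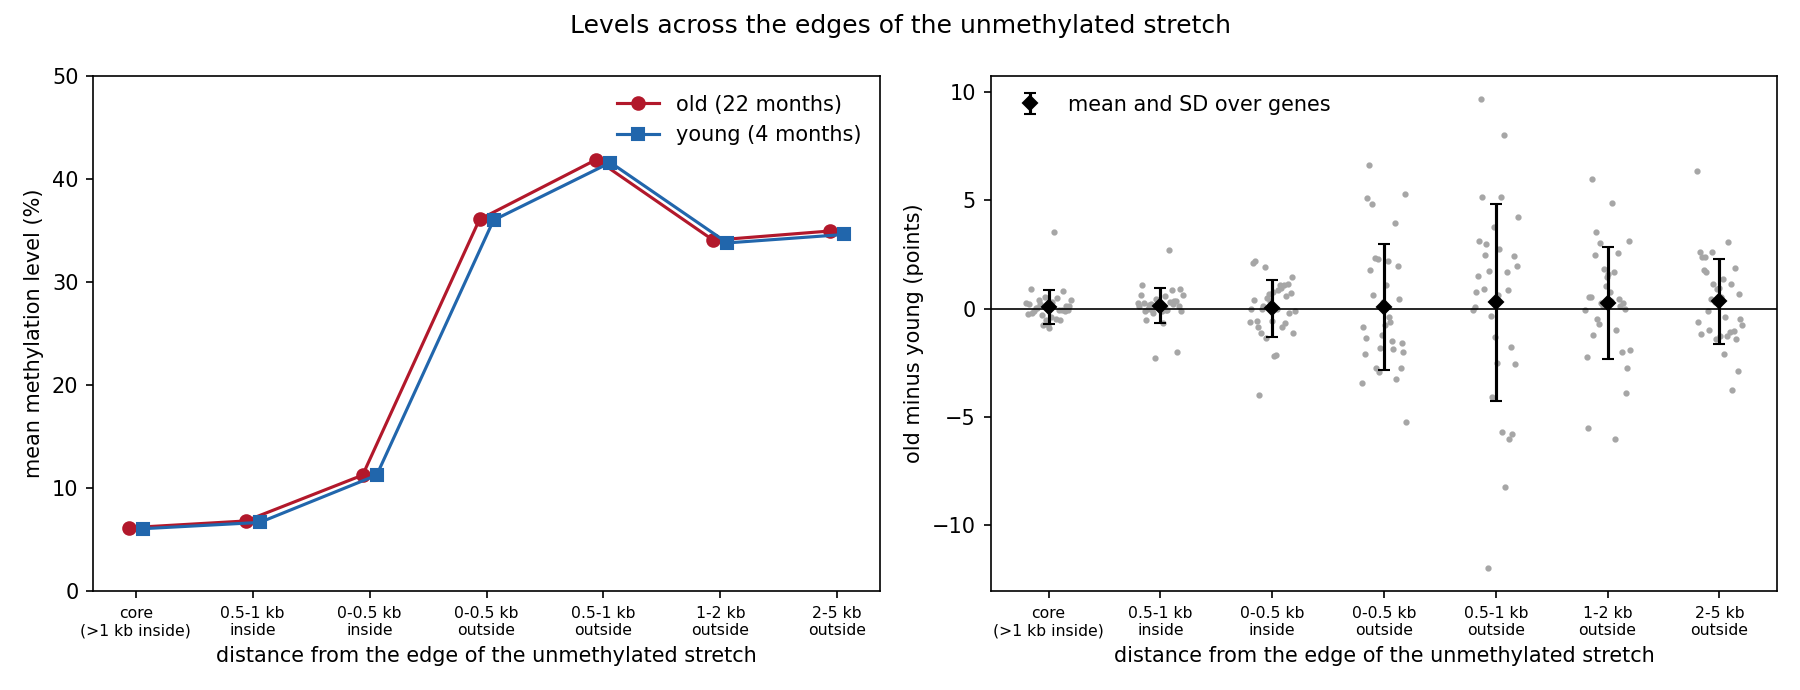
Mean methylation level in percent, in old and young cells (left), and the old minus young difference of each member in points with the mean and SD over genes (right), against distance from the edge of the unmethylated stretch. The level is near 6% in the core and near 36% within 500 bp outside the edge, and the old and young lines overlap throughout.

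At finer scale, the loci were divided into 848 bins of 500 bp with at least 4 positions. Of these 508 (59.9%) differed by under 2 points and 25 (2.95%) by at least 10 points, 10 higher and 15 lower in old, against 5.87% of 1430509 bins in the loci of all genes. The Lhx family held 16 of the 25 among 376 bins (4.26%), Irx 3 of 118, Sox 4 of 185 and Nkx 2 of 169, all shares below that of all loci. Bins of low level seldom reach 10 points: in the loci of all genes 0.00396% of those below 10% did. Among bins from 20% to 40% the share was 6.61% in members and 7.68% in all loci. From 40% to 60% it was 7.34% in members and 11.7% in all loci, and from 60% to 80% 4.76% and 8.28%. Lhx4 had 7 among its 102 bins (6.86%) and Lhx6 had 5 among 54 (9.26%). Higher shares came from fewer bins: 2 of 16 at Nkx2-6 (12.5%), 2 of 19 at Irx6 (10.5%) and 1 of 10 at Sox18 (10%). Among the 275 bins below 10% none reached 10 points, 154 (56%) were higher in old, and the median difference was 0.073 points. In the loci of all genes 38.7% of such bins were higher in old, with a median of -0.092 points. Mitochondrial DNA, which is nearly free of methylation, differed by -0.104 points, a shift of similar size, and the part of such a shift in these low levels was not tested.

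Of the 3 bins with the widest differences 2 lay in Lhx4, inside the gene and near its lower-coordinate end. They were chr1:155699500-155699999 (13 positions) at 63.5% in old and 44.7% in young cells, with a doubled median p of 0.0251, unadjusted, and chr1:155700500-155700999 (4 positions) at 31.6% in old and 52.5% in young cells. These nearby bins had opposite signs. Of the 848 member bins 2 had a doubled median p under 0.05, the first of these and the Sox7 bin given above. A bin of more positions was chr1:155716000-155716499 (24 positions) at 54.5% in old and 69.4% in young cells. Lhx4 also held 39 of the 134 positions that had an unadjusted p under 0.05 in the authors' deposited table, and it has the most positions of any member, so this was 2.21% of its own. By count Sox11 followed with 14 (1.59%), Lhx2 with 12 (0.781%) and Lhx6 with 10 (0.948%). By share Nkx2-6 came next to Lhx4, with 7 of 343 positions (2.04%), and Sox7, with 7 of 494 (1.42%), came after Sox11. Such positions made up 0.516% of the members' positions and 1.91% of those in the loci of all genes. In Lhx2 the bins were higher in old, with chr2:38343500-38343999 (4 positions) at 43.1% in old and 27.5% in young cells and chr2:38357500-38357999 (41 positions) at 69.8% in old and 59.0% in young cells. The third of those 3, just beyond the higher-coordinate end of Lhx9, was chr1:138850000-138850499 (8 positions) at 70.6% in old and 90.1% in young cells. Runs of at least 3 positions under p 0.01 of 1 sign, with gaps of at most 100 bp, numbered 2 in Lhx4 and 1 each in Lhx9, Sox7 and Sox11. They were sought in members only, so no share over all genes stands beside this count. Each run held 3 or 4 positions over 11 to 69 bp, and positions that near often share 1 level. All 4 positions of the Lhx9 run carried a most common dispersion value. The run in Sox11 had 3 positions at 50.3% in old and 38.6% in young cells.

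**Figure D5:**
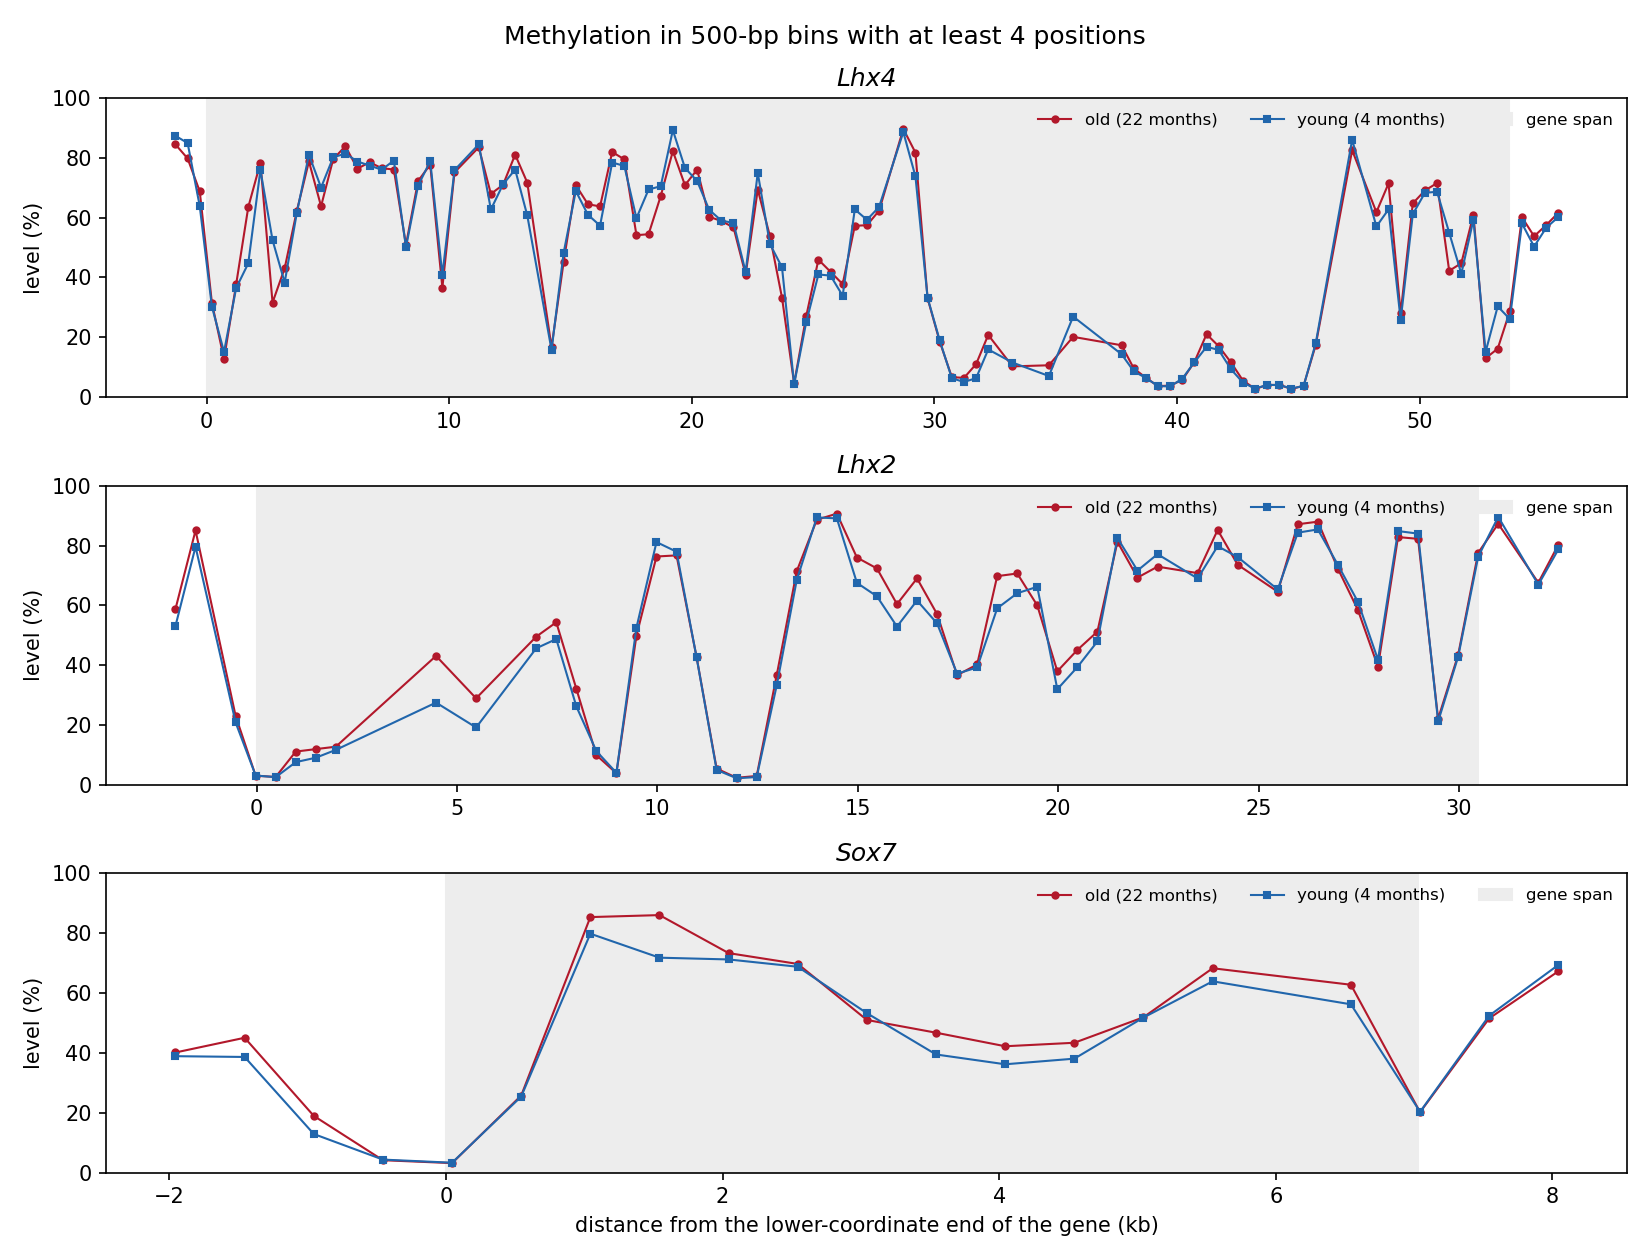
Methylation level in percent in 500-bp bins across Lhx4, Lhx2 and Sox7, for old and young cells, against distance in kb from the lower-coordinate end of the gene, with the gene span shaded. The lines follow each other through the low stretches, and they separate by at least 10 points in 7 bins of Lhx4, 2 of Lhx2 and 1 of Sox7.

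Single positions past the authors' FDR of 0.05 numbered 3 in the members, 1 each in Lhx2, Lhx4 and Sox18, where 0.236% of all positions passed and 39.3% of all loci held at least 1. In Lhx4, position 155730910 of chromosome 1 stood at 29.6% in old and 39.8% in young cells, with an FDR of 4.35e-05 (p 2.54e-08) in the authors' deposited table. It lies inside the span, 32879 bp from the lower-coordinate end. In Lhx2, position 38342618 of chromosome 2 stood at 36.4% in old and 27.8% in young cells, with an FDR of 0.0458 in the authors' deposited table, 3347 bp inside the span from the lower-coordinate end. Near Sox18, position 181669711 of chromosome 2 stood at 51.0% in old and 60.4% in young cells with an FDR of 0.0389 in the authors' deposited table, 126 bp outside the span. All 3 carried the most common dispersion value in young cells, 0.0438, which 18.9% of all positions carried, and without such positions 0 calls were left. At an FDR under 0.01 only the position in Lhx4 was left (0.156% of all positions passed), and at an FDR under 0.1 (0.297% passed) the authors' deposited table added Lhx8 (position 154309935 of chromosome 3, 66.1% in old and 50.3% in young cells) and Nkx2-1 (position 56530414 of chromosome 12, 5.63% in old and 14.2% in young cells). Exons and introns were not annotated in the tables used.

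The dispersion phi, a number per position and age left undefined in the labels and the header, had a median over member loci of 0.0459 in old and 0.0465 in young cells. It was higher in old in 14 of 34 members, against 59% of all genes, whose medians were 0.0483 in old and 0.0479 in young cells. The low share was not particular to the members. Among the 313 genes with a stretch of at least 5000 bp 46.3% were higher in old, with medians of 0.0468 in old and 0.0469 in young cells. By family it was higher in old in 5 of 8 Lhx, 3 of 9 Nkx, 4 of 6 Irx and 2 of 11 Sox genes. Sox10, the most methylated Sox locus, had the highest values, 0.0541 in old and 0.0543 in young cells. The difference in phi carries no error and was not tested.

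No end window or locus of the lists that follow passed the test. Of other LIM genes (Isl1, Isl2, Lmx1a, Lmx1b) 3 of 4 less methylated ends were higher in old. Isl1, a regulator of motor neurons and heart progenitors, stood at 8.61% in old and 8.21% in young cells, and Lmx1a, known in dopamine neurons, at 9.50% in old and 10.1% in young cells. Of other Sox genes (Sox3, Sox4, Sox5, Sox6, Sox12, Sox13, Sox15, Sox30) 3 of 8 were higher in old. Sox6, which acts in muscle fibre type, stood at 19.7% in old and 19.5% in young cells. Of 17 genes for Polycomb subunits, the repressors that commonly occupy such stretches, 11 ends and 15 loci were higher in old, and the median end stood at 9.31% in old cells and 9.21% in young cells. Among all protein-coding genes 51.4% of less methylated ends and 72.2% of loci were higher in old, the background for each count in these lists. Ezh2, the H3K27 methyltransferase, stood at 4.31% in old and 4.38% in young cells. The table used here holds no RNA or histone measurement, so expression of the members was not analysed here.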

How the data were processed

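Whole-genome bisulfite libraries of 4 old and 4 young mice were deposited as 1 table of group values. The tools named per the submitters' processing notes are Bismark, Trim Galore and edgeR, with mm10 and GRCm38 as builds, without the step each served. The methylation level, a fraction named mu per the file headers, was computed per group by the authors and converted here to percent. Neighbouring positions of different CpGs held equal levels at both ages in 52.6% of pairs 2 to 100 bp apart and 7.79% of pairs 101 to 1000 bp apart, so positions are not independent; how values came to be shared is not stated. Dispersion (phi) is a deposited score from 0 to 1. The p-value and its FDR are the authors' and deposited per position. Read counts per position are not in this table, so depth per position is unknown and no interval can be given. Positions counted from 0, since adding 1 placed 100% of those in RefSeq promoter windows on a CpG; printed coordinates count from 1 on GRCm38.

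Levels were averaged with equal weight per position in Python 3.11.15 (numpy 2.4.6, pandas 2.3.3). Gene spans came from RefSeq GRCm38.p6. Windows of at least 10 positions were tested by the median p times 2, which bounds the window's p under any dependence. Benjamini-Hochberg adjustment ran over all genes. The procedure was tested on simulated data in which every position of a changed window was shifted. Its power for a change in part of a window was not tested. All 34 members get values, and those with the 3 largest differences in each direction at the less methylated end or over the locus, a position past FDR 0.05, or the longest or shortest stretch of their family get detail. Members, lists and tests were chosen with earlier results of these data known, so no list is independent support. The promoter windows, the dispersion without its most common value, the bins and the runs were chosen after seeing the data. Other window sizes, weights, levels and position sets were tried as alternatives. Values of some genes outside the 34 are not reported here.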

Additional observations from a re-analysis of the deposited data

How the results depend on the processing

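The doubled median p called 0 windows or loci of any gene under every setting run, so its 0 for members says nothing of stability; the number of positions times the smallest p called 1 member locus (Lhx4) and 0 member ends. Positions past the authors' FDR numbered 3, but 0 without the most common dispersion value, 1 at an FDR of 0.01 (0.156% of all positions) and 5 at 0.1 (0.297%). Ends higher in old numbered 21, from 18 to 25 under other windows, weights and position sets, and 8 with the genome-wide difference subtracted. Loci higher in old numbered 25, from 23 to 27 otherwise, and 7 with that subtraction. The subtracted value is a mean over positions of all levels, not of low ones. Members with a stretch of at least 5000 bp numbered 17, from 14 to 21 with 200-bp or 1000-bp bins or a level of 30%, and 3 with a level of 10%, where 0.37% of all genes had one. In every setting but the subtraction, 12 of 34 members kept their sign at the end and 25 of 34 over the locus. The less methylated end was chosen anew in each of these settings, so a sign at the end can also change because the other end was taken. No paired analysis was possible because the table holds group levels with no column per animal. For the same reason leaving out each replicate was not run, and batch or animal effects cannot be told apart from age. Levels shared between neighbouring CpGs make counts of positions overstate separate events.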
